A study of Mus musculus with 29 samples.

Results

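Mouse genes for basic helix-loop-helix (bHLH) transcription factors of neural development were examined for binding of Atoh1, Pou4f3 and Gfi1. They are Neurog1, Neurog2, Neurog3, Neurod1, Neurod2, Neurod4, Neurod6, Atoh7 and Nhlh1, 9 of the 22367 protein-coding genes in the annotation of chromosomes 1 to 19, X and Y. A binding site was counted for a gene when the summit of a peak lay in the gene body or within 50 kb of it on the mm9 genome. They were taken by name, as members of this family. Binding was measured by ChIP-seq, in which DNA bound by a protein is precipitated with an antibody and sequenced.

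The cells were mouse embryonic stem cell lines of the A2loxCre parent, each with a doxycycline-inducible cassette that ends in the fluorescent reporter Venus. The line iAtoh1 carried Atoh1 alone, iPou4f3 carried Pou4f3 alone, iG+A carried Gfi1 with Atoh1, iG+P carried Gfi1 with Pou4f3, iP+A carried Pou4f3 with Atoh1, and iGPA carried Gfi1, Pou4f3 and Atoh1. Every group was treated with doxycycline at 2 µg/ml for 48 h and harvested on day 6 as embryoid bodies, balls of stem cells that have begun to differentiate. The antibody recognised a FLAG tag on Atoh1, a MYC tag on Pou4f3, and the Gfi1 protein itself, which carried no tag.

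There were 29 libraries from these 6 lines, 17 from ChIP and 12 from input. Gfi1 ChIP had 1 library, and every other group had 2, per the study from different clones of a line. Replicates were merged by the authors before peak calling, so each of the 9 lists is a pooled result, a spread between replicates cannot be given, and no test was possible. No list from cells without doxycycline was analysed here, and the lists were called against merged input replicates. The protocol names no sorting step, so a larger share of cells with binding and more binding per cell cannot be told apart.

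The kept Atoh1 lists ranged from 15568 summits (iAtoh1) to 26231 (iGPA), the Pou4f3 lists from 17082 (iP+A) to 32632 (iG+P), and the Gfi1 list had 3012. Depth is unknown from these files. As a stand-in, the number of background fragments most often recovered from the peak values was 3.55 for Gfi1 and between 5.87 and 8.30 for the rest. A peak therefore needed at least 14 fragments in the Gfi1 list, and 17 to 21 fragments in the other lists, to reach the lowest significance that those lists contain. Fold enrichment, the authors' ratio of ChIP signal at the summit to local background, is given with an exact Poisson 95% interval of its fragment count. These intervals, and the exact Clopper-Pearson 95% intervals of shares, cover counting error only.

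As background, proneural bHLH proteins pair with ubiquitous E proteins and bind E-boxes, short DNA elements with the letters CANNTG. Neurogenins act early and commit progenitors to a neuronal fate. They switch on NeuroD family genes and Nhlh1, which act later in differentiating neurons, so the family forms a cascade. Atoh1 belongs to the same class and specifies inner ear hair cells as well as neurons of the cerebellum and hindbrain. Pou4f3 is a POU homeodomain protein needed for hair cell survival, and Gfi1 is a zinc finger protein that hair cells also need.

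The sequences on which the results turn are shown here as the 250 bases around the summit in the list with the highest fold enrichment, 5′ to 3′ on the plus strand of mm9. They belong to the 8 sites found in the largest number of lists, 4 to 9, where ties among the 11 sites in 4 lists were settled by the highest fold enrichment. The remaining site, at an untranslated region of Vangl2, is described without its sequence. Capitals mark matches, on either strand, to the E-box forms CAGCTG, the same on either strand, and CAGATG, which the other strand reads as CATCTG, and to the Pou4f pattern ATAATTAAT with at most 1 mismatch. The Gfi1 patterns AATCACAGC and AATCACTGC were searched and matched none of them. Nhlh1, Neurod1 and Neurog1 lie on the minus strand, and Neurog2 and Atoh7 on the plus strand.
Nhlh1 start site, chr1:173987815-173988064: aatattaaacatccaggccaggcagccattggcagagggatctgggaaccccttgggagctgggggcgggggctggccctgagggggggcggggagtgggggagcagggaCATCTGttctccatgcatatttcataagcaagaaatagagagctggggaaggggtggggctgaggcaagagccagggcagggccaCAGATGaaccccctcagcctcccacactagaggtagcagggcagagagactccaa
Nhlh1 14.2 kb upstream, chr1:174001735-174001984: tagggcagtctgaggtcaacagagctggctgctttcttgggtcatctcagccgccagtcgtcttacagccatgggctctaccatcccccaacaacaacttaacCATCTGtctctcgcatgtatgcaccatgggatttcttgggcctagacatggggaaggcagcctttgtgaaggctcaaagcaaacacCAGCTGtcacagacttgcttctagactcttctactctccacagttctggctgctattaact
Nhlh1 10.2 kb downstream, chr1:173977386-173977635: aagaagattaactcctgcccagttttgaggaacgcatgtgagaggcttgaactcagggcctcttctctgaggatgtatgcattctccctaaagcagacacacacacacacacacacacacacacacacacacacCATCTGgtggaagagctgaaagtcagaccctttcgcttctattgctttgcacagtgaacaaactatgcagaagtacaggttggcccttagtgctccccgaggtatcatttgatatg
Neurod1 start site, chr2:79296969-79297218: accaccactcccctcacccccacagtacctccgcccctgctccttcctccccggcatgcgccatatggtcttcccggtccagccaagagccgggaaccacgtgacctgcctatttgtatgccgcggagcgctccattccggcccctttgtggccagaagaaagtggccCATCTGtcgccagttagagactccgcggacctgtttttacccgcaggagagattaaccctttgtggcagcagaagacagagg
Neurog2 start site, chr3:127335508-127335757: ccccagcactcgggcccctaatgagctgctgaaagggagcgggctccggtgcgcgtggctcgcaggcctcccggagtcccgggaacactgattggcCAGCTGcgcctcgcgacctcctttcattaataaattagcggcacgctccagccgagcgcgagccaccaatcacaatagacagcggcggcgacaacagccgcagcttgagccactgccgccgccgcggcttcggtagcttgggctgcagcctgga
Neurog1 start site, chr13:56353551-56353800: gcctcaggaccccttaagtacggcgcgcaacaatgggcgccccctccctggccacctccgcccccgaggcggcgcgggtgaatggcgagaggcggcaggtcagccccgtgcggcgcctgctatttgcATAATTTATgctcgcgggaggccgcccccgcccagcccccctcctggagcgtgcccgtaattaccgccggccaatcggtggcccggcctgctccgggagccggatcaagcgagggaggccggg
Atoh7 36.1 kb upstream, chr10:62526714-62526963: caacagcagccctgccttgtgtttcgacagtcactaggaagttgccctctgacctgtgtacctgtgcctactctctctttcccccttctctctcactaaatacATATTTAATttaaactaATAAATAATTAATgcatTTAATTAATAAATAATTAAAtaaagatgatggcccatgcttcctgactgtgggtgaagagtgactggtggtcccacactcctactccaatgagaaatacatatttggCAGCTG

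Atoh1 was present at Neurod1, Neurod4 and Nhlh1 in all 4 Atoh1 lists, 3 of 9 genes against 42.6% of all protein-coding genes. Pou4f3 was present at Neurog1, Neurog2, Neurod2, Neurod4, Atoh7 and Nhlh1 in all 4 Pou4f3 lists, 6 of 9 genes against 47.3% of all genes. With 9 genes, neither share can be told apart from that of all genes. Atoh7 alone among the 9 had Pou4f3 in all 4 lists and Atoh1 in none, a pattern held by 3.04% of all genes. Neurog3 and Neurod6 had 1 summit each over all lists, and Nhlh1 had 43 of the 123. The Nhlh1 window also takes in Vangl2, Ncstn and Copa, and some of its summits lay nearest to their starts.

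**Figure D1:**
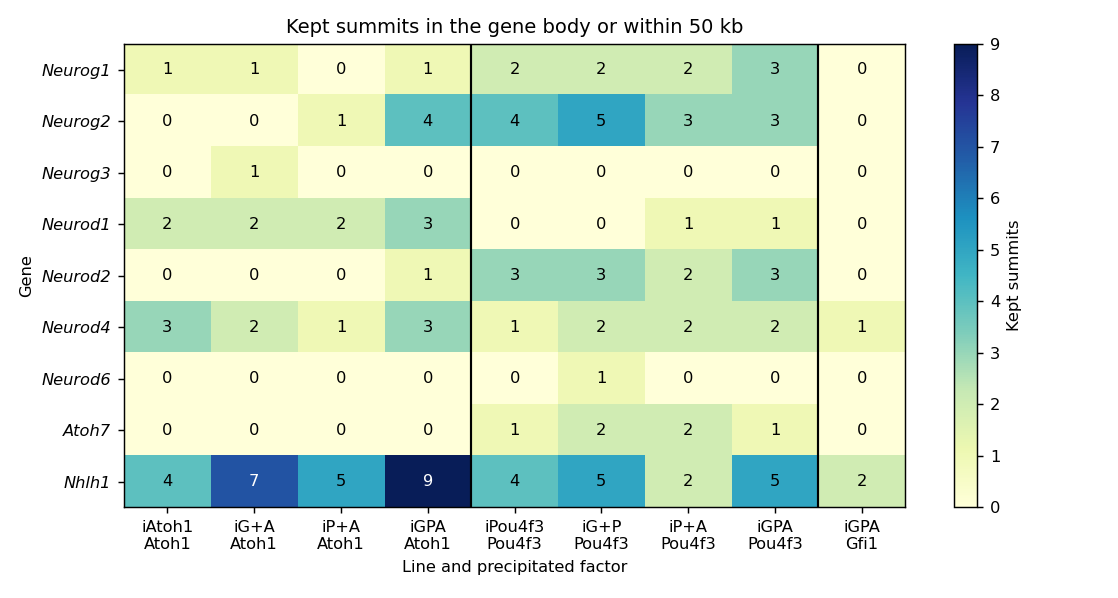
Kept summits in the body of each gene or within 50 kb, for each of the 9 genes (rows) in each list (columns, named by line and precipitated factor, with vertical lines between factors). Nhlh1 held 9 Atoh1 summits in iGPA, while Atoh7 held none in any Atoh1 list and Neurog3 and Neurod6 held 1 each in all.

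Presence alone was not more frequent at these genes than elsewhere in most lists. With Atoh1, 4 of 9 genes had a summit in iAtoh1 (53.1% of all genes), 5 in iG+A (65.7%), 4 in iP+A (62.7%), while iGPA had 6 (72.2%). For Pou4f3, the numbers were 6 of 9 in iPou4f3 (72.8% of all genes), 7 in iG+P (76.6%), 7 in iP+A (58.8%), while iGPA had 7 (63.2%). Gfi1 was found at 2 of 9 genes, Neurod4 and Nhlh1, against 23.2% of all genes. With 9 genes the intervals are wide, for example 29.9% to 92.5% for 6 of 9. The median number of summits per gene was 0 to 2 in every list, at these genes as over all genes.

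Summit density in the 0.936 Mb around the 9 genes gave a finer measure. It was divided by the density over the windows of all protein-coding genes. The ratio was 1.36 (95% interval 0.651 to 2.50) for Atoh1 in iAtoh1, 1.30 (0.693 to 2.22) in iG+A, 1.01 (0.460 to 1.91) in iP+A, and for iGPA it was 1.64 (1.01 to 2.51). For Pou4f3 it was 1.44 (0.803 to 2.37) in iPou4f3, 1.35 (0.827 to 2.09) in iG+P, 1.82 (0.997 to 3.06) in iP+A, and for iGPA it was 2.19 (1.30 to 3.46). The Gfi1 ratio of 2.02 rested on 3 summits (0.417 to 5.91). At this flank the 2 iGPA intervals, for Atoh1 and Pou4f3, lay above 1, and which lists did so changed with the setting. Nhlh1 alone held 9 of the 21 iGPA Atoh1 summits and 5 of the 18 iGPA Pou4f3 summits. The intervals treat neighbouring summits of a gene as independent, and the ratio without Nhlh1 was not computed. Within 10 kb of the genes the ratio was higher in every list, 2.27 to 3.68 for Atoh1 and 2.76 to 4.46 for Pou4f3 on 5 to 12 summits a list. There the intervals of all 4 Pou4f3 lists and of Atoh1 in iG+A (1.13 to 5.81) and iGPA (1.90 to 6.43) lay above 1. The iGPA Atoh1 interval included 1 with a flank of 100 kb (0.648 to 1.50) and with all called peaks (0.948 to 2.24).

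Summits of different lists whose 300-bp windows shared at least 1 bp were joined into 43 sites. Over the lists of all lines together, 15 were bound by Atoh1 without Pou4f3, 21 by Pou4f3 without Atoh1, 6 by both, and 1 by Gfi1 alone. The same split over all sites of the genome was not computed. In iGPA, 25.0% of the Atoh1 sites at these genes had a Pou4f3 summit, against 15.3% genome-wide. Sites with both need not have both in the same line. At the Neurog2 site 7.68 kb upstream, Atoh1 was in iGPA only and Pou4f3 in iG+P only. Gfi1 was also present at 2 of the 6 sites with both. The nearest annotated transcription start belonged to the gene itself at 22 of the 43 sites, and 6 sites lay within 1 kb of its start. Of the 43, 15 appeared in 4 or more lists and 14 in 1 list.

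**Figure D2:**
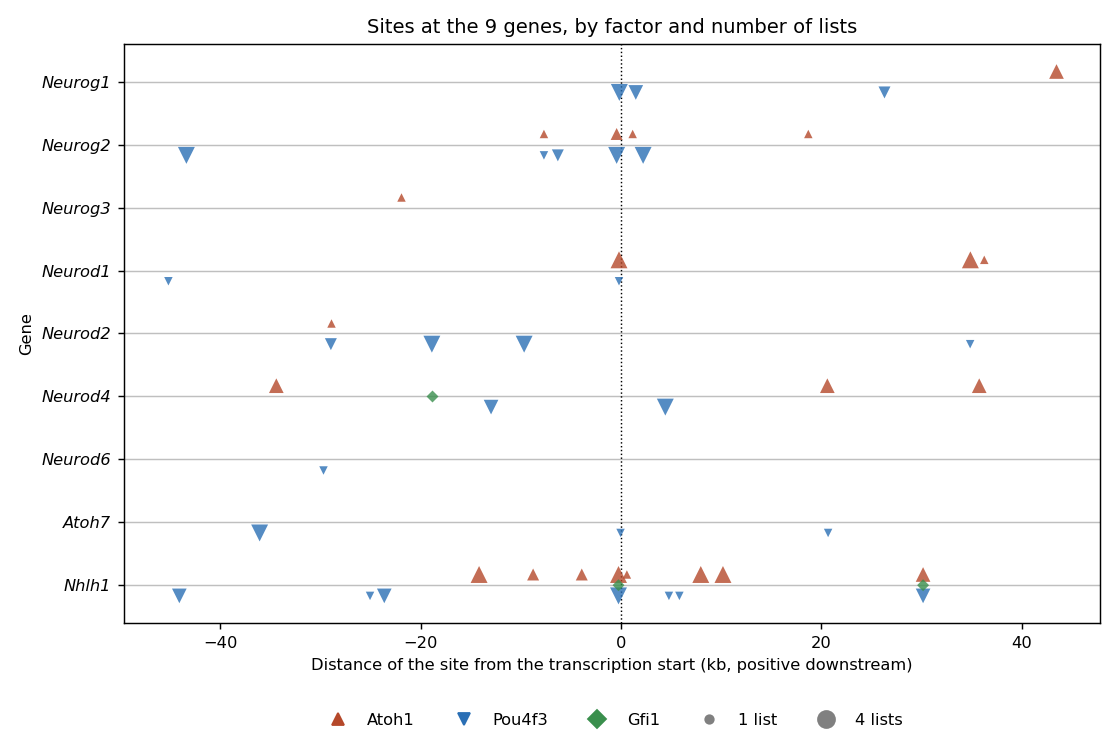
Position of the 43 sites relative to the transcription start of their gene (x axis, kb, positive downstream), with Atoh1 above the line, Pou4f3 below it and Gfi1 on it, and marker size giving the number of lists of that factor. Over the lists of all lines together, 6 sites had both Atoh1 and Pou4f3, among them the starts of Neurog2, Neurod1 and Nhlh1. In iGPA, 25.0% of the Atoh1 sites had a Pou4f3 summit, against 15.3% genome-wide.

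Among the early proneural genes, Neurog1, which specifies sensory neurons of the cranial ganglia and inner ear, was bound by Pou4f3 at its start and by Atoh1 only far downstream. It lies at chr13:56351866-56353524. The site 0.152 kb upstream of the start, an intergenic position, had Pou4f3 fold enrichment of 17.1 (14.7 to 19.8) in iPou4f3, 16.7 (14.2 to 19.6) in iG+P, 13.5 (11.2 to 16.1) in iP+A, and for iGPA it was 20.8 (17.6 to 24.5). It ranked 162, 76, 42 and 179 in those lists, that is within the top 1% of each. The iP+A and iGPA intervals did not overlap, and all others did. Over all 9083 sites that these 2 Pou4f3 lists share, the median ratio of iGPA over iP+A fold enrichment was 1.53. A higher value in iGPA is therefore usual and not particular to this site. No Atoh1 or Gfi1 peak was called there in any line, kept or not. Its sequence holds a Pou4f match, ATAATTTAT, with 1 mismatch, from base 128, and the summit is base 126 of each printed sequence.

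Atoh1 at Neurog1 was found at 1 site, 43.4 kb downstream of the start and 29.8 kb from the nearest start, that of Tifab. Its fold enrichment was 3.42 (2.30 to 4.92) in iAtoh1, 4.14 (2.84 to 5.85) in iG+A and 5.54 (4.06 to 7.39) in iGPA, and it was absent from the iP+A list. Its window held 2 E-box matches. Pou4f3 had 2 further Neurog1 sites. The site 1.49 kb downstream of the start, in the untranslated region, was found in 3 Pou4f3 lists (3.62 to 5.83), and the site 26.3 kb downstream in 2.

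Neurog2, a proneural gene of cortical and sensory progenitors, was bound by Pou4f3 in every line and listed for Atoh1 only where Pou4f3 was also induced. The gene lies at chr3:127336054-127338549. At the start site, 0.421 kb upstream, Pou4f3 fold enrichment was 5.35 (3.92 to 7.14) in iPou4f3, 5.03 (3.70 to 6.70) in iG+P, 4.19 (2.97 to 5.76) in iP+A, and for iGPA it was 7.86 (5.93 to 10.2). Atoh1 reached 3.12 (2.11 to 4.46) in iP+A and 5.54 (4.06 to 7.39) in iGPA. It was absent from the iAtoh1 and iG+A lists. Neurog2 was the only member with Atoh1 in both lines with Pou4f3 and in neither line without it, a pattern that 4.06% of all genes share. Counted within 1 kb of a start, 2.74% of all genes share it.

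The iP+A value rested on 28 fragments, and 21 were needed for a call in that list. A weaker Atoh1 peak in iAtoh1 or iG+A would have had to reach a fold enrichment near 2.44 or 2.54 to be listed, so lower binding was not detectable. The printed Neurog2 sequence holds an E-box CAGCTG from base 97 and no Pou4f match. Pou4f3 also occupied 2 other Neurog2 sites in all 4 lists. The site 2.22 kb downstream, in the untranslated region, had fold enrichment of 5.82, 6.90, 3.06 and 6.84 in the order iPou4f3, iG+P, iP+A, iGPA, with iP+A (2.04 to 4.43) below the intervals of iG+P and iGPA. Over all sites shared by the iP+A and iGPA Pou4f3 lists, the median ratio of iGPA over iP+A was 1.53. The site 43.4 kb upstream, in an intron of 4930422G04Rik, had 3.80, 3.83, 3.40 and 3.79, values whose intervals overlap. In iGPA, Atoh1 had 3 further Neurog2 sites, at 7.68 kb upstream and at 1.18 and 18.7 kb downstream, with fold enrichment of 2.46 to 3.94.

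Neurog3, which directs progenitors to pancreatic endocrine cells, was all but free of summits. Its single summit, 21.99 kb upstream, came from Atoh1 in iG+A with fold enrichment of 2.54 (1.56 to 3.93), rank 20003 of 20504, and it lay 49 bp from a start of 2010107G23Rik. A Pou4f3 peak of iPou4f3 with fold enrichment of 2.93 was called at the same place and left out of the summit list.

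Within the NeuroD family, Neurod1, a differentiation factor that neurogenins switch on, was bound chiefly by Atoh1. It lies at chr2:79292678-79296908, and the bound site next to its start lay 0.186 kb upstream, 152 bp from an annotated start of Cerkl on the same strand. Atoh1 fold enrichment was 5.25 (3.82 to 7.06) in iAtoh1, 5.61 (4.06 to 7.56) in iG+A, 5.70 (4.29 to 7.44) in iP+A, and for iGPA it was 10.6 (8.48 to 13.1). The values of the lines with 1 or 2 factors overlapped, and the iGPA interval lay above all 3. Over all shared sites, the median Atoh1 ratio of iGPA was 1.26 over iAtoh1, 1.15 over iG+A and 1.26 over iP+A. A higher Atoh1 value in iGPA is therefore usual. Pou4f3 was found at this start site in iGPA alone, with fold enrichment of 2.62 (1.59 to 4.11) on 17 fragments, the fewest that the list allows. The sequence holds an E-box CATCTG from base 169 and no Pou4f match.

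Atoh1 also bound 34.9 kb downstream of the Neurod1 start, in an intron of Cerkl, in all 4 lists. Fold enrichment was 3.54 (2.39 to 5.06) in iAtoh1, 3.47 (2.29 to 5.06) in iG+A, 6.35 (4.85 to 8.17) in iP+A, and for iGPA it was 5.41 (3.95 to 7.25). Here iP+A was the highest, and its interval met those of the other lines. Apart from the iGPA start peak, Pou4f3 had 1 site at Neurod1, 45.2 kb upstream in iP+A, with fold enrichment of 2.83.

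Some start regions were shared by all lists of a factor. Neurod1 and Nhlh1 had Atoh1 within 1 kb of the start in all 4 Atoh1 lists, 2 of 9 genes against 6.72% of all genes. Neurog1, Neurog2 and Nhlh1 had Pou4f3 within 1 kb in all 4 Pou4f3 lists, 3 of 9 genes against 4.77% of all genes. The exact interval for 2 of 9, 2.81% to 60.0%, includes the share of all genes. That for 3 of 9, 7.49% to 70.1%, lies above it. The genes were chosen with earlier results of these data known, so neither share is a test.

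**Figure D3:**
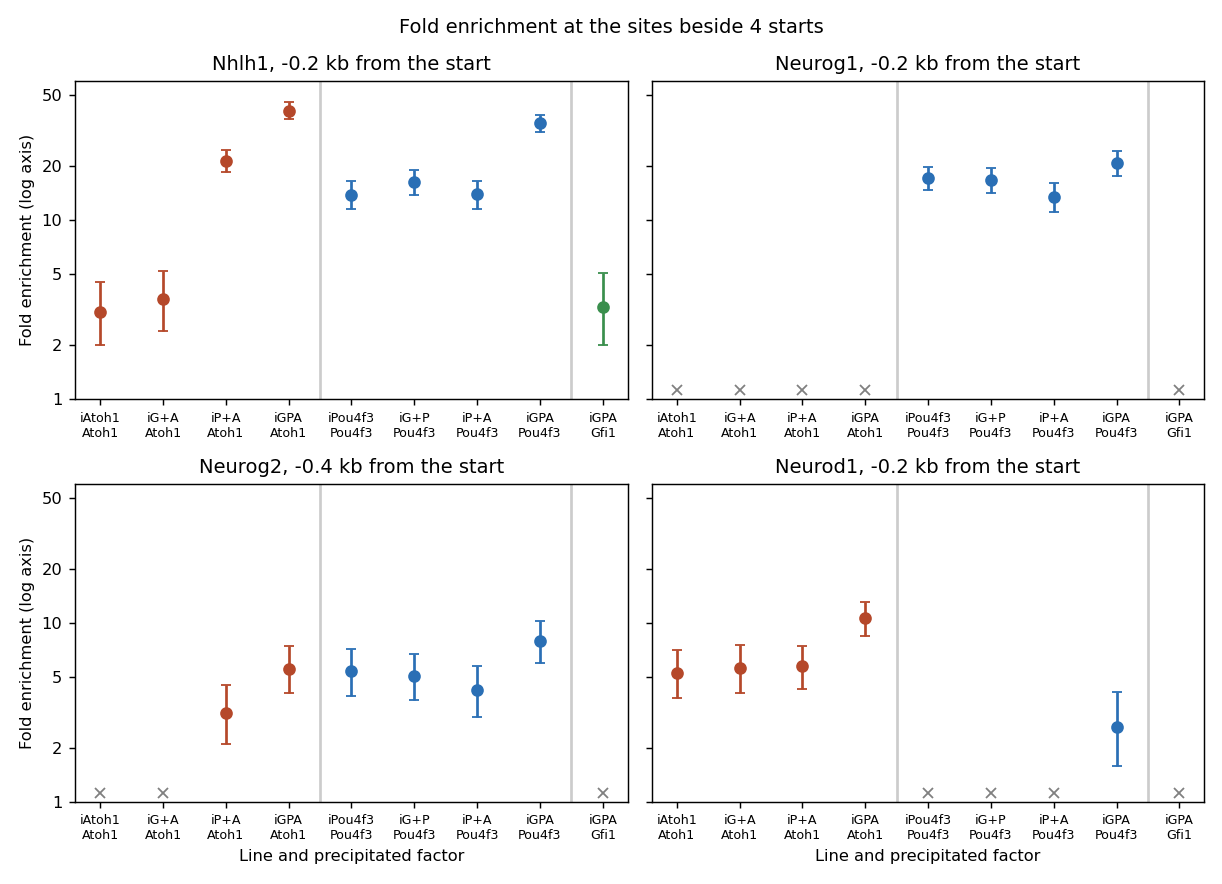
Fold enrichment (y axis, log scale) at the sites beside the starts of Nhlh1, Neurog1, Neurog2 and Neurod1 in each list (x axis), with exact Poisson 95% intervals of the fragment count and crosses for lists without a kept peak. At Nhlh1, Atoh1 stood at 3.05 in iAtoh1 and 3.60 in iG+A, while it stood at 21.4 in iP+A and 40.9 in iGPA.

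Neurod2, which acts in maturing neurons of the cortex, had mainly Pou4f3 summits in its window. At every one of its sites the nearest annotated start was that of another gene. Neurod2 lies at chr11:98186729-98190962. The site 18.9 kb upstream, 113 bp from the start of Ppp1r1b, had Pou4f3 fold enrichment of 4.24, 4.38, 2.94 and 6.55 in the order iPou4f3, iG+P, iP+A, iGPA. The site 9.66 kb upstream had 4.16, 4.16, 3.28 and 4.81 in the same order, and its window held 3 Pou4f matches. A further position, 29.0 kb upstream, lay in an intron of Stard3, 155 bp from the nearest start, that of Stard3. It was shared by Pou4f3 in iPou4f3 and iGPA with the only kept Atoh1 peak in this window, 3.08 (2.02 to 4.52) in iGPA. At the site 18.9 kb upstream the iGPA interval (4.80 to 8.75) lay above that of iP+A (1.94 to 4.29), and the other intervals of these Pou4f3 values overlapped. The median ratio of iGPA over iP+A was 1.53 over all sites that these 2 Pou4f3 lists share.

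Neurod4, which works alongside neurogenins in retina and cranial neurons, was bound by each factor at separate places. It lies at chr10:129705209-129717296. Pou4f3 occupied an intron of the gene 4.44 kb downstream of the start in all 4 lists, with near-equal fold enrichment of 3.33, 3.72, 3.40 and 3.20. It occupied a site 12.96 kb upstream in 3 lists (2.96 to 3.79). Both windows held an exact match to ATAATTAAT.

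Atoh1 bound Neurod4 at 3 distant sites, each in 3 of 4 lists. The strongest, 35.8 kb downstream, had fold enrichment of 2.69 (1.71 to 4.04) in iAtoh1, 6.81 (5.09 to 8.93) in iG+A and 6.03 (4.48 to 7.95) in iGPA. Its iG+A and iGPA intervals both lay above that of iAtoh1, and the site was absent from the iP+A list. The other two, 20.6 kb downstream and 34.4 kb upstream, ranged from 2.58 to 4.27. Their windows held 5 E-box matches each, and that of the strongest held 3. Gfi1 bound alone 18.9 kb upstream with fold enrichment of 6.16 (4.13 to 8.86), the strongest of its 3 summits at these genes.

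Neurod6, a gene of maturing cortical neurons, had 1 kept summit, 29.7 kb upstream, from Pou4f3 in iG+P with fold enrichment of 2.85 (1.88 to 4.15). Its window held none of the 3 patterns. An Atoh1 peak of iG+A with fold enrichment of 2.94 was called there but left out of the summit list.

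Atoh7, which retinal ganglion cells require and which is the close relative of Atoh1 in mammals, lies at chr10:62562904-62563353. Pou4f3 bound strongly 36.1 kb upstream, in an intron of Pbld1, at fold enrichment of 8.44 (6.60 to 10.6) in iPou4f3, 10.2 (8.23 to 12.5) in iG+P, 6.45 (4.90 to 8.35) in iP+A, and for iGPA it was 9.90 (7.71 to 12.5). The intervals of all 4 lists overlapped, those of iP+A and iG+P only between 8.23 and 8.35. The sequence holds 6 Pou4f matches, several of which share bases, between bases 104 and 157. An exact ATAATTAAT begins at base 125. A further 2 Pou4f3 summits, 0.031 kb upstream in iG+P and 20.7 kb downstream in iP+A, had fold enrichment of 2.52 and 2.72.

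Nhlh1, a bHLH gene of newly formed neurons, carried the highest fold enrichment found at any of the 9 genes for both Atoh1 and Pou4f3, each in iGPA. It lies at chr1:173982423-173987704, and 13 of the 43 sites were in its window. At the start site, 0.236 kb upstream, all 9 lists had a summit, within 30 bp of each other. Only 39 of the 22367 genes, 0.174%, had summits of all 9 lists within 1 kb of a start.

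Atoh1 fold enrichment at the Nhlh1 start was 3.05 (2.00 to 4.48) in iAtoh1, 3.60 (2.40 to 5.22) in iG+A, 21.4 (18.5 to 24.6) in iP+A, and for iGPA it was 40.9 (36.6 to 45.5). The fragment counts were 24, 26, 198 and 333 over backgrounds of 7.19, 6.49, 8.30 and 7.17. The 2 lines without Pou4f3 overlapped each other, and the 2 lines with Pou4f3 lay far above them and apart from each other. In rank, the site was 8384 of 15568 in iAtoh1 and 6737 of 20504 in iG+A, but 14 of 18949 in iP+A and 11 of 26231 in iGPA.

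Pou4f3 at the same position had fold enrichment of 13.9 (11.5 to 16.7) in iPou4f3, 16.3 (13.8 to 19.1) in iG+P, 13.9 (11.6 to 16.6) in iP+A, and for iGPA it was 34.8 (31.0 to 38.8). The intervals of iPou4f3, iG+P and iP+A overlapped, and only iGPA stood above them. Gfi1 reached 3.27 (2.01 to 5.06) on 18 fragments, rank 2747 of 3012. The printed sequence holds an E-box CATCTG from base 111 and an E-box CAGATG from base 196. No Pou4f match at 1 mismatch is present. The closest stretch, ATATTTCAT, differs from the pattern at 2 positions and begins at base 127 of the printed sequence.

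The rise at the Nhlh1 start was set against every site that the same 2 lists share, a comparison chosen after its values were seen. The iP+A fold enrichment was 7.01 times that of iAtoh1. Of 7609 shared sites, this was the only one with a ratio that high (0.0131%), and the median ratio was 1.00. Sites without a kept iAtoh1 peak have no ratio and were not ranked, so larger gains may lie among them. The iGPA value was 13.4 times that of iAtoh1, again unmatched among 8053 shared sites (0.0124%), where the median was 1.26. For Pou4f3, iGPA stood at 2.50 times iPou4f3, a ratio that 1.63% of 10965 shared sites reached. With Gfi1 as the added factor, the Atoh1 ratio was 1.18 for iG+A over iAtoh1, beside a median of 1.09, and 1.91 for iGPA over iP+A, beside 1.26. The Pou4f3 ratio was 1.17 for iG+P over iPou4f3, beside 0.947, and 2.50 for iGPA over iP+A, beside 1.53. The intervals of iGPA and iP+A did not overlap for either factor.

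Around Nhlh1, Atoh1 had 3 further sites in all 4 Atoh1 lists, and each was highest in iGPA. The site 14.2 kb upstream, in an intron of Ncstn and 461 bp from its start, had fold enrichment of 4.40, 7.88, 3.01 and 9.23 in iAtoh1, iG+A, iP+A and iGPA. Unlike the start, this site was higher in iG+A (6.01 to 10.1) than in iP+A (2.02 to 4.33). The site 10.2 kb downstream had 3.30, 4.41, 3.66 and 9.72, and the site 7.98 kb downstream 3.30, 3.07, 2.69 and 7.14, in the same order. In both cases the iGPA interval lay above those of the other lines. Over all shared sites of the genome, the median Atoh1 ratio of iGPA over these lines was 1.15 to 1.26. All 3 further sites held an E-box match.

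The site 30.2 kb downstream, at the 5′ end of Vangl2, was in 7 lists with modest values. Atoh1 fold enrichment was 4.55 in iGPA, 3.66 in iP+A and 2.67 in iG+A. For Pou4f3 it was 3.57, 3.06 and 3.06 in iPou4f3, iG+P and iGPA, and for Gfi1 3.75. Its window held no E-box match of the forms searched and no Pou4f or Gfi1 match. Of the 5 remaining Pou4f3 sites of Nhlh1, those at 44.1 and 23.6 kb upstream, within Copa and Ncstn, were in 3 lists each. The other 3 were in 1 list each, and 2 of these, 4.80 and 5.84 kb downstream, had the Nhlh1 start as the nearest.

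The lines were then compared over all sites of a factor at the 9 genes. Of 21 Atoh1 sites, 10 were present in iAtoh1 (47.6%, 25.7 to 70.2), 13 in iG+A (61.9%, 38.4 to 81.9), 9 in iP+A (42.9%, 21.8 to 66.0), while iGPA had 20 (95.2%, 76.2 to 99.9). Over the 45175 Atoh1 sites of the genome the shares were 33.6%, 44.3%, 41.2% and 57.0%. Thus iGPA held all but 1 of the Atoh1 sites at these genes, the summit at Neurog3. Sites found only in the lines with Pou4f3 made up 7 of 21 (33.3%, 14.6 to 57.0) against 39.9% genome-wide. Those found only in the lines without Pou4f3 made up 1 of 21 (4.76%, 0.120 to 23.8) against 25.8%, and 6 of 21 were in all 4 lines (28.6%, 11.3 to 52.2) against 10.4%.

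Pou4f3 sites numbered 27. They were present in iPou4f3 at 15 (55.6%, 35.3 to 74.5), in iG+P at 20 (74.1%, 53.7 to 88.9), in iP+A at 14 (51.9%, 31.9 to 71.3), while iGPA had 18 (66.7%, 46.0 to 83.5). Genome-wide, over 48289 sites, the shares were 46.3%, 66.5%, 35.0% and 38.7%. Sites in all 4 lines were 9 of 27 (33.3%, 16.5 to 54.0) against 14.5%. Only lines with Atoh1 held 4 of 27 (14.8%, 4.19 to 33.7) against 16.1%, and only lines without Atoh1 held 7 of 27 (25.9%, 11.1 to 46.3) against 45.1%. Neighbouring sites of a gene are not independent, and Nhlh1 alone gave 8 of the 21 Atoh1 sites, so these shares describe the sites and carry no test.

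**Figure D4:**
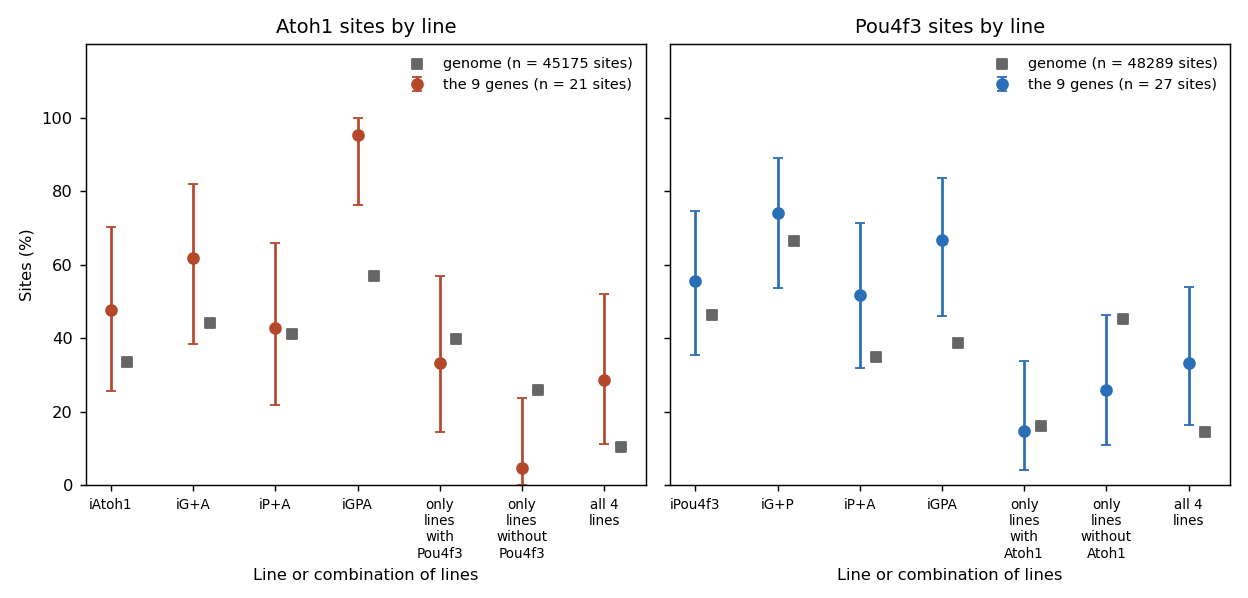
Share of Atoh1 sites (left) and Pou4f3 sites (right) present in each line or combination of lines (y axis, percent), for the 9 genes (circles, exact 95% intervals) and over the genome (squares). Of the 21 Atoh1 sites at these genes, 95.2% were in iGPA against 57.0% genome-wide, and 4.76% were only in lines without Pou4f3 against 25.8%.

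In iGPA cells, 5 of the 20 Atoh1 sites at these genes had a Pou4f3 summit (25.0%, 8.66 to 49.1) against 15.3% of 25931 sites genome-wide. Gfi1 met Atoh1 at 2 of 20 (10.0%, 1.23 to 31.7) against 5.06%. Both intervals include the genome-wide share. The 5 sites were the starts of Neurog2, Neurod1 and Nhlh1 together with the positions near Stard3 and Vangl2.

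Fold enrichment at sites that 2 lists share was compared next. Over iAtoh1, the median ratio of iGPA was 2.06 at 10 shared sites of the 9 genes (lowest 0.682, highest 13.4, above 1 at 8) and 1.26 over all shared sites. Of these 10 sites, 4 lay in the Nhlh1 window. The medians of iP+A over iAtoh1 were 1.09 at 7 sites and 1.00 in all, and those of iG+A over iAtoh1 were 1.18 at 9 sites and 1.09 in all. For Pou4f3, iGPA over iPou4f3 gave 1.18 at 13 sites and 1.19 in all. The highest ratio over iAtoh1 in both iP+A and iGPA was that of the Nhlh1 start.

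Sequence patterns were counted at the sites of each factor, without the same counts over all sites of the genome. All 15 sites with Atoh1 and no Pou4f3 held an E-box of the 2 forms searched within the 250 bases, and 1 held a Pou4f match. Among the 21 sites with Pou4f3 and no Atoh1, 12 held a Pou4f match and 6 an E-box. The 6 sites with both factors held an E-box in 3 cases and a Pou4f match in none. At 2 of these 6, the starts of Neurog2 and Nhlh1, the closest stretch to the Pou4f pattern had 2 mismatches, and at the other 4 it had 3 to 5. The factors were in different lines at the Neurog2 site 7.68 kb upstream, and Pou4f3 at the Neurod1 start rested on 17 fragments. With its own search, the study reports both patterns at most sites that Atoh1 and Pou4f3 share in iGPA. No general statement follows from 6 sites.

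By list, an E-box was present at 10 of 10 iAtoh1 summits near the 9 genes (100%, 69.2 to 100), 12 of 13 in iG+A (92.3%, 64.0 to 99.8), 8 of 9 in iP+A (88.9%, 51.8 to 99.7), while iGPA had 17 of 21 (81.0%, 58.1 to 94.6). Over all kept Atoh1 summits the shares were 59.9%, 63.0%, 63.7% and 72.9%. The Pou4f pattern was present at 9 of 15 iPou4f3 summits (60.0%, 32.3 to 83.7), 10 of 20 in iG+P (50%, 27.2 to 72.8), 7 of 14 in iP+A (50%, 23.0 to 77.0), while iGPA had 11 of 18 (61.1%, 35.7 to 82.7). Over all kept Pou4f3 summits it was at 41.9%, 41.9%, 39.99% and 54.5%. The Gfi1 patterns were at 0 of the 123 summits, which would allow a share of up to 2.44% if the summits were independent. They are not, because the same place is counted in several lists, so this limit is too low. The 123 summits join into 43 sites, and 0 of these held a Gfi1 match. Over the whole Atoh1 and Pou4f3 lists the patterns were at 0.343% to 0.660%. For the 3 Gfi1 summits alone the interval was 0% to 70.8%, against 7.01% of that list. A match describes the letters and does not show which protein bound them.

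**Figure D5:**
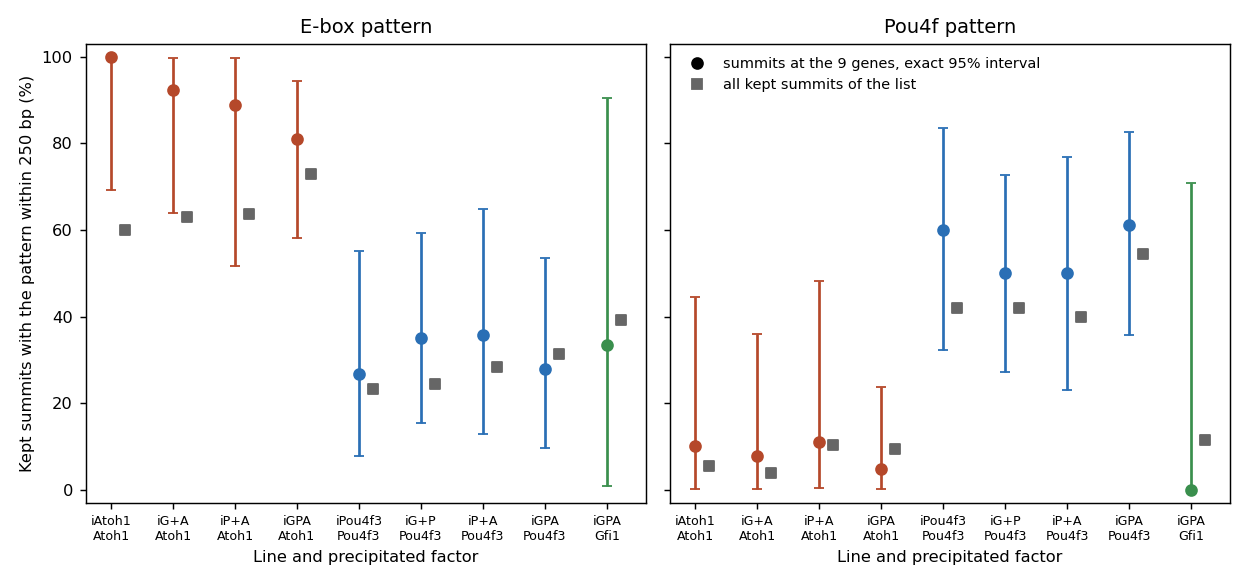
Share of kept summits with an E-box (left) or Pou4f match (right) in the 250 bp around them (y axis, percent) in each list (x axis), at the 9 genes (circles, exact 95% intervals) and over the whole list (squares). The E-box was at all 10 iAtoh1 summits of these genes against 59.9% of the list.

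The pattern of counts over the 9 lists was compared with that of all other protein-coding genes, as a description over 9 lists that differ in length. The genes most like the members were Chpt1 for Neurog1 (Pearson r = 0.953), Troap and C1ql4 for Neurog2 (0.984), Kif21b for Neurod1 (0.976), Cenpc1 and Kcnj2 for Neurod2 (0.988) and Snrnp40 for Neurod4 (0.959). The counts of Atoh7 were equal or proportional to those of 4 genes, Tlr3 and Colec10 among them (r = 1), and 4 genes, Optc and Prelp among them, tied for Nhlh1 (0.983). With so few counts, many genes come close to such values.

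Other neural bHLH genes formed a separate list of 11, namely Ptf1a, Olig1, Olig2, Olig3, Bhlhe22, Bhlhe23, Bhlha15, Ferd3l, Nhlh2, Atoh1 and Atoh8. In the Atoh1 lists, 6, 5, 5 and 9 of the 11 had a summit in iAtoh1, iG+A, iP+A and iGPA, and in the Pou4f3 lists 7, 9, 7 and 6 had it in the order iPou4f3, iG+P, iP+A, iGPA. Gfi1 was present at 2. Over all genes the shares were 53.1% to 72.2% for the Atoh1 lists, 58.8% to 76.6% for the Pou4f3 lists and 23.2% for Gfi1. Atoh8, a distant relative of Atoh1, had the most Atoh1 summits, 7, 10, 8 and 13, while Ptf1a had none in any list. Nhlh2, the close relative of Nhlh1, had 3, 5, 2 and 7 Atoh1 summits and 0, 1, 1 and 2 Pou4f3 summits. Atoh1 itself had 1, 2, 1 and 1 in the Atoh1 lists, and reads over its coding exon can also come from the inserted cassette.

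Of 7 genes downstream of proneural factors, Hes6, Dll1, Cbfa2t3, Ebf3, Elavl3, Rnd2 and Gadd45g, 7, 6, 6 and 7 had an Atoh1 summit and 6, 6, 7 and 6 a Pou4f3 summit, in the same order of lines, and 6 had a Gfi1 summit. The same shares of all genes apply, 53.1% to 72.2%, 58.8% to 76.6% and 23.2%. Cbfa2t3, a corepressor that neurogenins induce, had 10, 14, 12 and 22 Atoh1 summits. Ebf3, a factor of differentiating neurons, had 2 and 1 Atoh1 summits in iAtoh1 and iG+A and 8 and 7 in iP+A and iGPA, with 9, 7, 11 and 7 Pou4f3 summits. Dll1, the Notch ligand that proneural proteins activate, had 2, 3, 2 and 5 Atoh1 summits.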

How the data were processed

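According to the methods of the study, the authors cleaned reads with Trimmomatic, aligned them to mm9 with Bowtie 2, removed duplicates, alignments of mapping quality under 40 and blacklisted regions, and called peaks with MACS 2 (p of 0.05) on merged ChIP replicates against merged inputs. The tools' versions are not given in the sources used here. The deposited peak lists give, per peak, the fold enrichment (a ratio over local background), −log10 p, −log10 q and a score. Kept peaks are those that the deposited summit lists name, and the second score in these lists, of unstated definition, was not used. Of all called peaks, 14.1% to 35.5% were not kept, by a filter that was not stated, and the lowest kept −log10 p was 3.87 to 4.79. The files whose names give 3 factors were taken as iGPA, the only line with 3.

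The members and the other gene lists were chosen with earlier results of these data known. Gene positions came from GENCODE vM1 on NCBIM37, the assembly of mm9, and all peaks lay within its chromosome lengths. Fragments at a summit were recovered by inverting fold and −log10 p (tolerance 0.001), which worked for 99.8% to 100% of 600 peaks per list. Fold intervals hold the background fixed. Sites described were, per gene and factor, the one with the highest fold, and all in at least 4 of 9 lists. Sequences were those of up to 8 sites in most lists, leaving out untranslated regions. The likeness rule named the genes with the highest Pearson r, at most 2 of those tied. With 1 pooled list per group, no p-value was computed. Window counting, site joining and the inversion were tested on simulated data. Alternatives were other flanks, window widths, peak filters, list lengths, backgrounds and pattern settings. Python 3.11.15, pandas 2.3.3 and scipy 1.17.1 were used. One gene of the list of other neural bHLH genes is not reported here.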

Additional observations from a re-analysis of the deposited data

Results flagged for a closer look

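The peaks that were called but left out of the summit lists held 4 peaks in the windows of the 9 genes, and they stand outside the comparisons above. At Neurod6, an Atoh1 peak of iG+A with fold enrichment of 2.94 lay 29.8 kb upstream, and at Neurog3, a Pou4f3 peak of iPou4f3 with 2.93 lay 22.1 kb upstream. Each was within 300 bp of a kept summit of another list. At Neurod2, Atoh1 peaks of iGPA lay 5.46 kb downstream and 42.2 kb upstream, both with 2.83. The median fold enrichment of the kept peaks was 3.20 in iG+A, 3.45 for Atoh1 in iGPA and 3.33 in iPou4f3, above all 4 values.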

How the results depend on the processing

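Of 272 values recomputed under an alternative, 240 stayed within the 95% interval of the reported value and 32 did not. Of the 240, 9 were shares of genes set beside another background, which cannot change them. At equal list length the iAtoh1 and Gfi1 lists were also left as they were. The share of genes with a summit stayed within its interval under every alternative tried, but with 9 genes these intervals are too wide to show stability. For Atoh1 in iGPA it was 66.7% (29.9 to 92.5), and 88.9% with a flank of 100 kb. By nearest transcription start it was 33.3%. The density ratio depended most on the flank. With a flank of 10 kb it was 2.86, 2.82, 2.27 and 3.68 for Atoh1 in iAtoh1, iG+A, iP+A and iGPA, and 2.99, 2.76, 3.75 and 4.46 for Pou4f3 in the order iPou4f3, iG+P, iP+A, iGPA. With 100 kb the iGPA Atoh1 ratio was 1.01. With −log10 p of at least 10 it was 2.23 and 2.54 for Atoh1 in iG+A and iGPA, and 2.41 and 2.71 for Pou4f3 in iPou4f3 and iG+P.

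Within 10 kb, iGPA held 100% of 11 Atoh1 sites, and 0% were only in lines without Pou4f3. At −log10 p of at least 10, 25.0% of 16 Atoh1 sites were in iAtoh1, 6.25% were in all 4 lines, and Gfi1 met 0% of 14 iGPA Atoh1 sites. At equal list length, 10.0% of 20 Pou4f3 sites were only in lines without Atoh1. In 100 bp around the summit, the Pou4f pattern was at 0% of the iAtoh1 and of the iP+A Atoh1 summits, and the E-box at 10.0% of the iG+P summits. With any CANNTG, the share was 100% in each of iG+A, iP+A and iGPA Atoh1, and 60.0%, 85.0%, 71.4% and 83.3% in the Pou4f3 lists in the same order. With up to 2 mismatches, an alternative chosen after seeing the data, the Pou4f pattern was at 28.6% of iGPA Atoh1 summits and at 75.0% and 92.9% of the iG+P and iP+A Pou4f3 summits. No paired analysis was possible because the deposited lists pool the replicates, and for the same reason no replicate could be left out. Absence from a kept list does not limit binding to below the 14 to 21 fragments that a peak needs. Peaks of 21 to 26 fragments were called at these genes and left out by the unstated filter.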
